A study of Caenorhabditis elegans with 9 samples.

Results

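Diluted bacteria (DR1) were compared with ad libitum feeding (AL) in whole adults of the wild-type *C. elegans* strain N2, using 6 of the 9 RNA-seq libraries of the series, 3 per condition. Both groups had grown up on HT115, the control *E. coli* strain of feeding experiments, and on adult day 1 they were moved to plates with kanamycin, an antibiotic that keeps the bacteria from multiplying. For the next 24 h the DR1 worms were given HT115 diluted before plating, and the AL worms were given it undiluted. The comparison asks what a thin lawn of food changes across all genes, and the 3 libraries of worms without any bacteria took no part in it.

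Each library holds poly(A)-enriched RNA of whole worms, so fewer cells of a type and less RNA per cell cannot be told apart. Total counts were 9500863, 9461313 and 11348326 in DR1 and 9863736, 9586649 and 12012750 in AL. Expression is given in CPM, the counts of a gene per 1000000 counts of its library, scaled to library sizes that were adjusted by TMM, a method that aligns the bulk of the genes between libraries. Changes are log2 fold changes of DR1 over AL, and s.e. is their standard error, the log2 fold change over the root of the F statistic. Upregulated and downregulated genes are those past a log2 fold change of 1 or −1 whose p from edgeR's quasi-likelihood test, adjusted after Benjamini and Hochberg, is under 0.05. Nothing in the labels or methods tells if replicate libraries stem from different cultures, and p values therefore refer to the spread of these libraries. Reads were counted without regard to strand, and reads from overlapping genes on opposite strands or from near-identical copies cannot be told apart.

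*C. elegans* grinds bacteria in its pharynx and digests them in a single-layered intestine, whose cells also store fat, make antimicrobial proteins and load yolk into the body cavity for the oocytes. When food is scarce, lipases free fatty acids from the stored fat and the mitochondria oxidize them. Nematodes also hold the glyoxylate cycle, which lets them turn the products of fat breakdown into sugars. The germ line and the cuticle are the other large users of material in a young adult.

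Diluted food changed the levels of many genes. Of 13826 genes tested, 1457 were upregulated (10.5%) and 1216 downregulated (8.80%) in DR1. At the adjusted p alone, 4008 genes were higher (29.0%) and 4459 lower (32.3%), so most significant differences were smaller than 2-fold. Between 2 libraries of the same condition, log2 CPM correlated across genes with r from 0.983 to 0.990, against 0.921 to 0.924 between a DR1 and an AL library. Most called genes moved moderately. Among those upregulated, 1146 had log2 fold changes between 1 and 2, and 24 passed 5. Among those downregulated the numbers were 888 and 23. DR1 libraries held counts for 20372 to 20845 genes and AL libraries for 18274 to 18527. In addition, 362 genes had a count in all 3 DR1 libraries and in no AL library, while 11 showed the reverse. The balance of rises and falls depends on the scaling, because the TMM factors were 1.12 to 1.13 in DR1 and 0.886 to 0.894 in AL. The median log2 fold change of all genes was 0.02 with TMM. It was 0.36 with total-count scaling, a shift of 0.34, and then 2701 genes were upregulated and 751 downregulated. Upregulated genes were 54.5% of those called with TMM and 78.2% with total-count scaling. Quantile normalization gave 45.9%, from 1075 upregulated and 1267 downregulated genes.

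**Figure D1:**
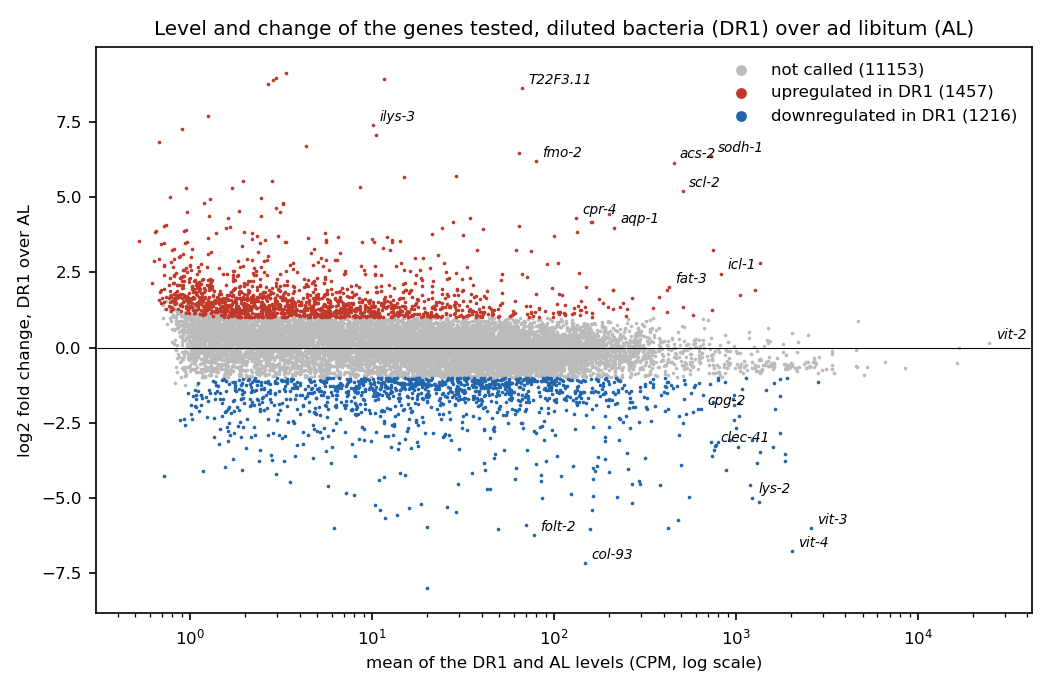
Each point is one of the genes tested, with the mean of its DR1 and AL levels in CPM on a log x axis and its log2 fold change of DR1 over AL on the y axis. The 1457 upregulated genes (red) lie mostly at low levels, and the 1216 downregulated genes (blue) include *vit-3* and *vit-4*, with means of 5069 and 4023 CPM in AL.

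Rises were most frequent among genes of low expression and falls among genes of high expression. When the genes were divided into 5 equal classes by their mean level, 24.4% of the lowest class (0.523 to 3.07 CPM) were upregulated and 5.75% downregulated. A gene of this class could pass the filter on low counts through 1 condition alone, and such genes had to differ. How many of them add to these shares was not counted. In the highest class, from 72.5 CPM upward, 76 of 2765 genes (2.75%) were upregulated and 306 downregulated. The median log2 fold change was 0.52 in the lowest and −0.21 in the highest class. This last median is smaller than the shift between the TMM and total-count scalings.

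The largest rises were of genes that AL worms barely used. T22F3.11 stood at 140, 125 and 132 CPM in the DR1 libraries, against 0.227, 0.235 and 0.471 CPM in the AL libraries, a log2 fold change of 8.63 (s.e. 0.15, adjusted p = 1.93e-17). W02D7.11 had 20.4, 31.96 and 17.5 CPM in DR1, against 0, 0.117 and 0 CPM in AL. It had 779 counts over the DR1 libraries and 1 over the AL libraries, a ratio of 641 (95% counting interval 114.6 to 25340). The alcohol dehydrogenase gene *sodh-1*, now called *adh-1*, reached 1462, 1427 and 1449 CPM in DR1, against 16.6, 18.2 and 17.8 CPM in AL. The DR1 and AL libraries of the 3 genes did not overlap, and those of W02D7.11 varied most within DR1. *scl-2*, which codes for a secreted SCP-like protein, had 1022, 1003 and 963 CPM in DR1, against 27.4, 30.8 and 24.3 CPM in AL, and T12D8.5 had 378, 397 and 378 CPM, against 18.1, 19.9 and 15.6 CPM. Others among the 20 largest rises were F40G12.5 (7.07), *hsp-12.6* (5.71), Y6E2A.4 (5.66), C54C8.12 (5.35) and F53A9.8 (4.17). In C54C8.12 and F53A9.8, both short genes, DR1 replicate 2 was highest, with 26.2 CPM against 15.1 and 8.77 CPM in replicates 1 and 3 for C54C8.12.

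Falls of similar size removed transcripts that AL worms held in quantity. The cuticle collagen gene *col-93* had 1.88, 2.74 and 1.64 CPM in DR1, against 298, 295 and 296 CPM in AL (−7.16, s.e. 0.09). The folate transporter gene *folt-2* had 1.60, 3.12 and 1.49 CPM in DR1, against 159, 150 and 149 CPM in AL (−6.22, s.e. 0.13). F28H7.3 had 7.34, 7.85 and 7.36 CPM in DR1, against 311, 311 and 324 CPM in AL. In each of the 3, the transcript was nearly gone after 24 h on diluted food while the AL libraries agreed closely. F57F4.4, now called *bcf-1*, fell by 5.91 on the log2 scale, the prolyl carboxypeptidase-like gene *pcp-2* had a log2 fold change of −5.68 and *drd-50*, named for lower expression under dietary restriction, one of −5.46. The neighbours F01D5.2 and F01D5.3 had log2 fold changes of −7.98 and −5.97, but their annotated spans on chromosome II overlap by a few bases and reads there can fit both.

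**Figure D2:**
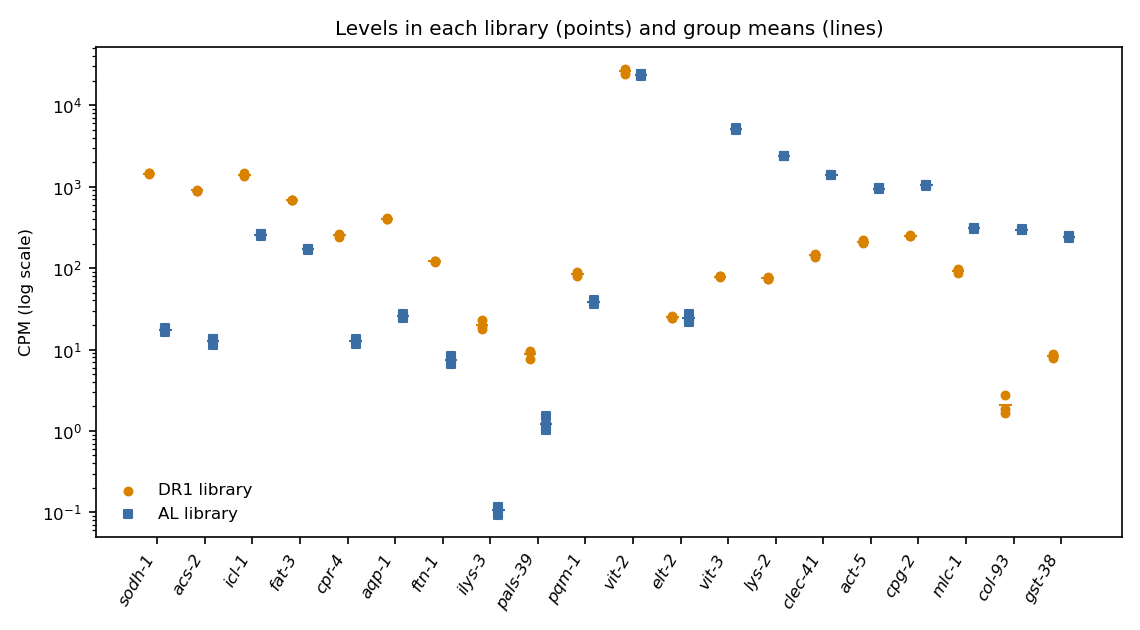
CPM on a log axis of 20 genes described in the text, with a point for each DR1 library (orange, left) and each AL library (blue squares, right) and a line at the group mean. The libraries of a condition nearly coincide, the conditions are apart for all genes shown but *elt-2*, and *ilys-3* rests on 1 count in each AL library.

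Genes for freeing and activating fatty acids included several of the large rises. Of 13 lipase and lipolysis genes tested out of 15, 4 were upregulated and none downregulated, with a median log2 fold change of 0.33 against 0.02 for all genes. The lysosomal lipase gene *lipl-3* had 56.7, 51.1 and 51.4 CPM in DR1, against 3.52, 3.41 and 1.98 CPM in AL (4.18, s.e. 0.15). *lipl-4* had 292 counts over the DR1 libraries and 2 over the AL libraries, a ratio of 120.0 (95% counting interval 32.9 to 996.1). Its relative *lipl-1* had a smaller log2 fold change of 1.35, and *fil-1*, a fasting-induced lipase gene, 1.22. Among 17 acyl-CoA synthetases, which couple fatty acids to coenzyme A, 5 were upregulated and 2 downregulated (median 0.62), and total-count scaling gave 8 and 1. *acs-2*, a mitochondrial member known from fasted worms, had 888, 884 and 917 CPM in DR1, against 13.3, 13.6 and 11.3 CPM in AL (6.14, s.e. 0.06). *acs-19* had 588, 547 and 598 CPM in DR1, against 179, 168 and 190 CPM in AL. The fall of *acs-1*, which acts on branched fatty acids, was 2.16 on the log2 scale, with 31.99, 35.6 and 33.7 CPM in DR1, against 156, 155 and 144 CPM in AL. For all of these, the DR1 and AL libraries did not overlap.

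Of 35 genes of mitochondrial beta-oxidation, 3 were upregulated (8.57%) and 2 downregulated (5.71%), beside 10.5% and 8.80% of all genes. Total-count scaling gave 6 and 1. With TMM, at the adjusted p alone, 15 were higher and 10 lower (median 0.16). The carnitine palmitoyltransferase gene *cpt-3*, whose product brings fatty acids into mitochondria, had 18.6, 17.3 and 19.6 CPM in DR1, against 1.36, 0.352 and 2.63 CPM in AL. *hacd-1*, a hydroxyacyl-CoA dehydrogenase gene, had 242, 226 and 230 CPM in DR1, against 46.8, 38.8 and 40.9 CPM in AL (2.46, s.e. 0.06). *acdh-1*, an acyl-CoA dehydrogenase gene used as a sensor of diet and vitamin B12, went the other way with 49.7, 54.9 and 53.7 CPM in DR1, against 172, 177 and 171 CPM in AL. *hphd-1*, which acts after *acdh-1* in the same side route of propionate breakdown, also fell (−1.20, s.e. 0.09). Of 27 peroxisomal genes, the acyl-CoA oxidases *acox-1.2*, *acox-1.3* and *acox-1.4* of ascaroside (pheromone) synthesis were downregulated, with log2 fold changes of −2.12, −1.93 and −1.38.

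Desaturases and elongases each changed gene by gene. The desaturase gene *fat-3*, which starts the synthesis of long polyunsaturated fatty acids, had 690, 686 and 691 CPM in DR1, against 174, 168 and 171 CPM in AL (2.01, s.e. 0.04). *fat-7*, which makes monounsaturated fatty acids, had 29.1, 30.1 and 33.2 CPM in DR1, against 79.0, 84.5 and 91.8 CPM in AL (−1.46, s.e. 0.08). The other 5 desaturases had log2 fold changes between −0.57 (*fat-1*) and 0.01 (*fat-2*). The acetyl-CoA carboxylase gene *pod-2*, the committed step of synthesis, was higher at the adjusted p alone, with 628, 605 and 661 CPM in DR1, against 381, 376 and 388 CPM in AL. The elongase genes *elo-5* and *elo-9* fell (−1.08 and −1.42). Of 15 fatty acid-binding genes, 5 fell and 1 rose, with a median of −0.89, and both other scalings left 3 that fell. *far-1*, a secreted carrier, had 241, 256 and 227 CPM in DR1, against 780, 817 and 801 CPM in AL, while *far-7* had 22.2, 27.9 and 20.4 CPM, against 3.07, 1.88 and 1.32 CPM.

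Enzymes that lead from fat to sugar were among the strongly expressed genes that rose. The isocitrate lyase gene *icl-1* of the glyoxylate cycle had 1407, 1337 and 1463 CPM in DR1, against 260, 245 and 262 CPM in AL (2.46, s.e. 0.04). *pck-2*, a phosphoenolpyruvate carboxykinase gene of gluconeogenesis, had 1625, 1587 and 1646 CPM in DR1, against 476, 473 and 487 CPM in AL, while its paralogue *pck-1* was slightly lower and passed only the adjusted p (−0.43). The fructose bisphosphatase gene *fbp-1*, a later step, was lower too and missed the fold threshold (−0.98, s.e. 0.05). For trehalose, a storage sugar of worms, the synthase gene *tps-1* had 68.2, 64.0 and 70.2 CPM in DR1, against 19.2, 17.98 and 18.3 CPM in AL. The trehalase gene *tre-2* fell by 1.53 on the log2 scale, whereas *tre-4* and *tre-5* rose. The glycogenin gene *gyg-2*, which primes glycogen, and the acid glucosidase genes *aagr-1* and *aagr-2* were downregulated, *gyg-2* with 78.4, 74.7 and 77.9 CPM in DR1, against 211, 220 and 208 CPM in AL. Of 19 glycolytic genes, only the hexokinase gene *hxk-1* was called (−1.07).

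Genes of methyl donor and phosphocholine synthesis moved in both directions. *pmt-1*, which codes for the first methyltransferase on the way to phosphocholine, had 1022, 1004 and 1082 CPM in DR1, against 447, 427 and 443 CPM in AL (1.24, s.e. 0.04). *pmt-2*, which codes for the enzyme that finishes the route, had 102, 100 and 104 CPM in DR1, against 276, 259 and 267 CPM in AL (−1.39, s.e. 0.05). The S-adenosylmethionine synthetase gene *sams-1*, which supplies the methyl groups, fell by 1.35 on the log2 scale, and the cystathionine lyase gene *cth-2* by 1.47. With *folt-2*, 4 of the 19 tested genes of this group were downregulated and 1 was upregulated.

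Most genes for ribosomes, the proteasome and respiration were lower by less than 2-fold. Of 78 cytosolic ribosomal protein genes tested, 68 were lower and 1 higher at the adjusted p alone, and only *rla-1* passed the fold threshold. The median log2 fold change was −0.60. Total-count scaling gave −0.26 and quantile normalization −0.01. Their share of all counts was 11.2 ± 0.397% in DR1 and 13.7 ± 0.189% in AL (SD, n = 3 each). Such a share uses no TMM factor and amounts to total-count scaling, so it is no separate measure. *rla-1* had 1784, 1689 and 1802 CPM in DR1, against 3893, 3922 and 3848 CPM in AL. The elongation factor gene *eef-1A.1* was lower at the adjusted p alone (−0.69), with 6529, 6198 and 6712 CPM in DR1, against 10507, 10387 and 10533 CPM in AL. Of 33 proteasome subunit genes, 30 passed the adjusted p with lower levels and none with higher ones (median −0.37), and *rpn-6.2* was downregulated. The proteasome median was −0.03 under total-count scaling and −0.14 under quantile normalization. The nuclear genes of the respiratory chain and ATP synthase had 47 of 55 lower and 2 higher (median −0.44), none of them past the fold threshold. Their median came to −0.10 under total-count scaling and −0.15 under quantile normalization. Among the 12 protein genes of the mitochondrial genome, 10 passed the adjusted p with lower levels and none with higher ones, and mitochondrial transcripts took 2.67 to 2.73% of counts in DR1 and 3.01 to 3.05% in AL. The citrate cycle gene *mdh-2* was downregulated (−1.16), with 114, 114 and 117 CPM in DR1, against 261, 259 and 254 CPM in AL. For translation factors, mitochondrial ribosomal proteins and chaperonin subunits the medians were −0.27, −0.29 and −0.23, and with total-count scaling 0.06, 0.05 and 0.10.

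Lysosomal proteases moved in both directions. Of 31 cathepsin-type protease genes tested out of 37, 8 were upregulated and 14 downregulated. In 3 of the 8 the AL mean was under 1 CPM, so these passed the filter on low counts only through DR1 and had to differ. Of the 28 at 1 CPM or more in AL, 5 were upregulated and 14 downregulated. The cathepsin B-like gene *cpr-4* had 256, 243 and 259 CPM in DR1, against 11.8, 13.04 and 13.6 CPM in AL (4.30, s.e. 0.07). *cpr-1* had 164, 151 and 164 CPM in DR1, against 22.7, 24.4 and 23.2 CPM in AL, and *cpr-5*, the marker gene of the lysosomal surveillance response, had 44.1, 40.6 and 43 CPM, against 7.27, 9.05 and 9.98 CPM. In contrast, *asp-14*, an aspartic protease gene, had 43.7, 38.5 and 40.7 CPM in DR1, against 458, 464 and 467 CPM in AL (−3.50, s.e. 0.05). F57F5.1, now *cpr-9*, had 63.9, 58.4 and 64.2 CPM in DR1, against 915, 937 and 955 CPM in AL. *asp-6*, among the 15 genes with the most counts, was higher without passing the fold threshold with TMM (0.88). It took 0.685 ± 0.039% of counts in DR1 and 0.294 ± 0.0093% in AL, a wider gap because shares follow the total counts. Of 21 subunits of the v-ATPase, a proton pump of lysosomes and other membranes, 10 were downregulated and 20 lower at the adjusted p alone (median −0.96), led by *vha-5* with 23.9, 28.4 and 25.5 CPM in DR1, against 109, 116 and 112 CPM in AL. Total-count scaling and quantile normalization each left 6 subunits downregulated. The glucocerebrosidase gene *gba-4* (−3.84), the sphingomyelinase gene *asm-3* (−2.36) and the intestinal acid phosphatase gene *pho-1* (−2.11) fell as well. Autophagy genes leaned upward by less than 2-fold. Of 26, 16 were higher and 2 lower at the adjusted p alone (median 0.38), and *atg-2* was upregulated with 105, 97.7 and 105 CPM in DR1, against 42.0, 49.2 and 47.3 CPM in AL. Either of the other scalings called 4 upregulated.

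**Figure D3:**
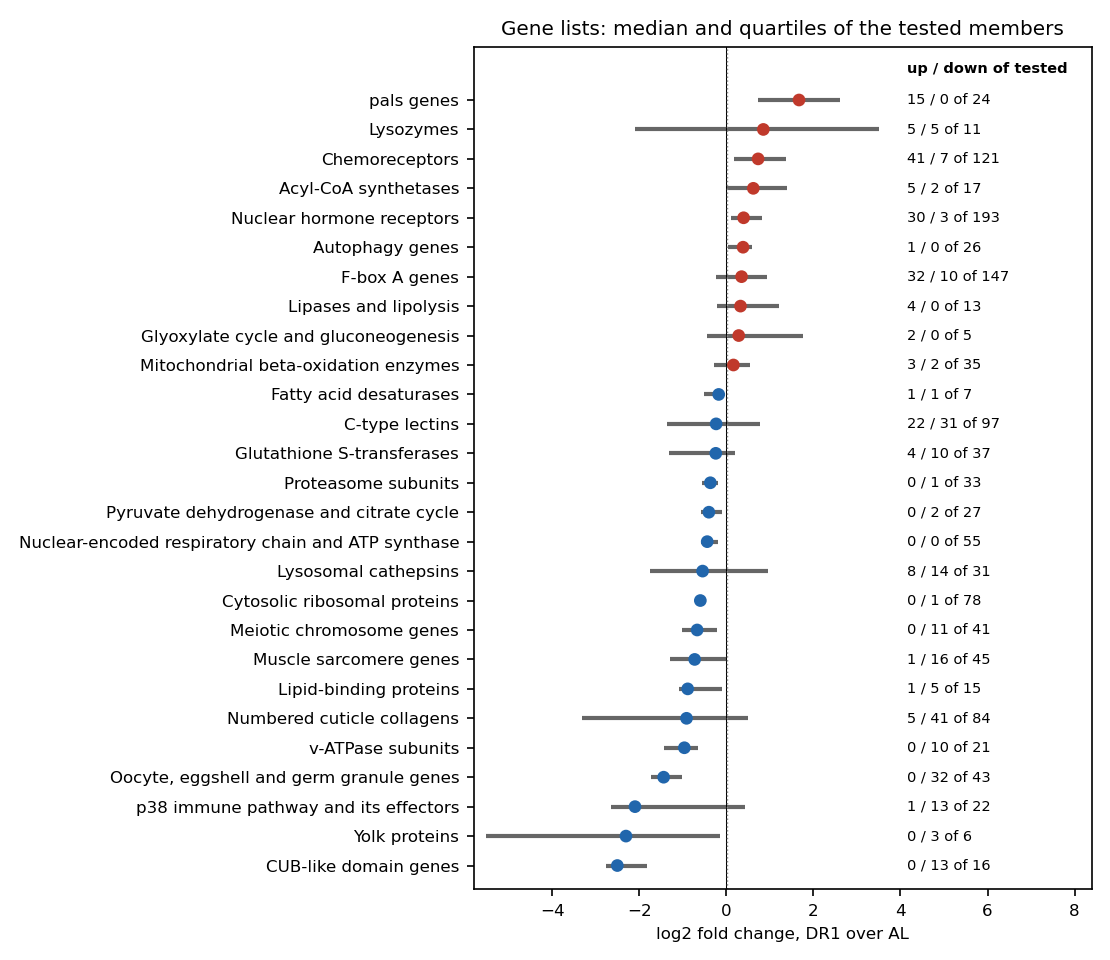
Median log2 fold change of DR1 over AL (points, red above and blue below 0) and the range from the first to the third quartile (bars) of the tested members of 27 gene lists, with the numbers upregulated and downregulated out of those tested at the right and the median of all genes as a dotted line. The *pals* genes stand highest (median 1.67), a place that members tested only for their DR1 levels help to fix, and the CUB-like domain genes lowest (−2.50). All medians shift with the scaling, and wide bars such as those of lysozymes and collagens mark lists whose members moved both ways.

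In the gut wall, 4 of 16 genes of the brush border and terminal web fell and 2 rose, while total-count scaling gave 3 and 4. The intestinal actin gene *act-5*, which builds the microvilli, had 209, 203 and 224 CPM in DR1, against 952, 931 and 951 CPM in AL (−2.16, s.e. 0.04). The terminal web intermediate filament genes *ifc-2* and *ifb-2* fell too (−1.53 and −1.13), but the beta-spectrin gene *sma-1* rose (1.14, s.e. 0.06). *elt-2*, the GATA factor of the intestine, had 25.6, 24.6 and 24.3 CPM in DR1, against 24.0, 27.3 and 22.02 CPM in AL (0.03, adjusted p = 0.84), and these libraries overlapped. The channel gene *aqp-1*, an aquaglyceroporin of the intestine, had 403, 399 and 409 CPM in DR1, against 27.4, 24.3 and 24.8 CPM in AL (3.98, s.e. 0.06). *gpdh-1*, which makes glycerol under osmotic stress, fell to 1.51, 3.21 and 2.58 CPM in DR1, against 12.04, 15.98 and 17.5 CPM in AL. The sugar transporter genes *swt-1* and *swt-6* moved oppositely, with log2 fold changes of 1.66 and −1.46.

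Metal handling changed in a mixed way, with 5 of 32 genes upregulated and 7 downregulated. The balance turned with total-count scaling, to 10 and 3, and was 6 and 6 with quantile normalization. The ferritin gene *ftn-1*, for iron storage, had 120, 121 and 121.9 CPM in DR1, against 6.70, 8.34 and 7.15 CPM in AL (4.04, s.e. 0.09). *smf-3*, an intestinal importer of iron and manganese, rose as well, with 12.4, 9.83 and 11.8 CPM in DR1, against 1.59, 1.29 and 1.60 CPM in AL. The metallothionein genes split, *mtl-1* with 294, 382 and 231 CPM in DR1, against 17.6, 13.5 and 19.01 CPM in AL, and *mtl-2* with 21.5, 35.7 and 18.6 CPM, against 60.8, 84.9 and 71.5 CPM. Of the heme genes, *hrg-7* fell to 12.8, 9.93 and 7.36 CPM in DR1, against 73.4, 80.1 and 84.0 CPM in AL, and the heme importer gene *hrg-4* fell by 1.78 on the log2 scale.

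Yolk transcripts differed by gene, and most oocyte genes fell. Of the 6 vitellogenin genes, *vit-1*, *vit-3* and *vit-4* were downregulated and the other 3 stayed within 2-fold. *vit-1* had 96.7, 99.8 and 100 CPM in DR1, against 1696, 1641 and 1684 CPM in AL (−4.08, s.e. 0.04). *vit-2* had 26080, 24379 and 27592 CPM in DR1, against 23854, 22836 and 23843 CPM in AL, a log2 fold change of 0.15. Together the vitellogenins took 6.32 ± 0.393% of counts in DR1 and 6.27 ± 0.11% in AL. Reads can be shared among *vit-3*, *vit-4* and *vit-5*, whose sequences are nearly the same. Of 43 oocyte, eggshell and germ granule genes, 32 were downregulated, none was upregulated and 41 were lower at the adjusted p alone (median −1.44). The eggshell gene *cpg-2* had 247, 249 and 253 CPM in DR1, against 1024, 1032 and 1056 CPM in AL (−2.06, s.e. 0.04). *oma-2*, a regulator of oocyte maturation, had 60.02, 62.3 and 67.2 CPM in DR1, against 261, 250 and 266 CPM in AL. The yolk receptor gene *rme-2* had 70.6, 62.8 and 64.0 CPM in DR1, against 232, 234 and 234 CPM in AL (−1.83, s.e. 0.05). The libraries of these 3 genes were tightly grouped in both conditions.

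Earlier germline stages were lowered less. Of 41 meiotic chromosome genes, 11 were downregulated and 29 were lower at the adjusted p alone (median −0.67), among them *zhp-3* (−1.21) and *prom-1* (−1.31), but with total-count scaling none was downregulated and 1 was upregulated. Of 73 genes of replication and the cell cycle only 2, the B-type cyclin genes *cyb-2.1* and *cyb-2.2*, were downregulated. *cyb-2.1* had 46.1, 42.8 and 43.1 CPM in DR1, against 125, 119.4 and 121.9 CPM in AL. The nuclear Argonaute gene *hrde-1* fell by 1.46 on the log2 scale and *his-74*, which codes for a variant histone H3, by 1.51. *hil-1*, a linker histone gene, rose (2.28, s.e. 0.11). The 10 sperm markers summed to 5.48 to 6.21 CPM in DR1 and 9.43 to 12.9 CPM in AL, but only 2 had enough counts to be tested and neither was called. A longer list of 147 sperm genes had 53 tested, 3 upregulated and 9 downregulated (median 0.03). At the adjusted p alone, 17 were higher and 12 lower. The DR1 mean was under 1 CPM in 7 of the 9 downregulated, and the AL mean was in 1 of the 3 upregulated. These members passed the filter on low counts through 1 condition only and had to differ. The share of all counts taken by this list was 0.0917 ± 0.00945% in DR1 and 0.0583 ± 0.00323% in AL.

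Marker genes of cell types were summed in each library. The summed CPM of 10 oocyte markers was 1849 to 1974 in DR1 and 6237 to 6478 in AL, and all 10 were downregulated. Markers of germ cells summed to 548 to 566 CPM in DR1 and 1063 to 1110 CPM in AL, with 3 of 8 downregulated. Markers of body wall muscle summed to 889 to 949 CPM in DR1 and 1923 to 1995 CPM in AL, with 4 of 8 downregulated. Intestinal markers, with 5 of 10 downregulated and 1 upregulated, summed to 2416 to 2568 CPM in DR1 and 4571 to 4627 CPM in AL. The 12 neuronal markers summed to 524 to 529 CPM in DR1 and 489 to 516 CPM in AL, none was downregulated, and *ric-19* and *unc-31* were upregulated. Without *sbt-1* the neuronal sums were 473.7 to 483.8 CPM in DR1 and 451.3 to 480.6 CPM in AL and overlapped. Markers of early embryos, which the mothers carry, summed to 287 to 298 CPM in DR1 and 231 to 236 CPM in AL. *sdz-28* carried this gap with 174.3, 170.9 and 176.2 CPM in DR1, against 120.8, 118.3 and 120.9 CPM in AL. Without it the sums were 113 to 122.2 CPM in DR1 and 109.7 to 117 CPM in AL and overlapped. Epidermal markers summed to 293 to 298 CPM in DR1 and 1219 to 1279 CPM in AL. *col-19* carried this gap with 33.96, 35.4 and 33.99 CPM in DR1, against 1029, 1078 and 1089 CPM in AL. Without it the direction turned, and the sums were 257.8 to 264.3 CPM in DR1 and 186.2 to 190.2 CPM in AL. That turn rested mostly on *wrt-10*, with 149.1, 146.1 and 138.3 CPM in DR1, against 78.62, 74.48 and 72.46 CPM in AL. *wrt-10* missed the fold threshold (0.94), and *elt-3* went the other way (−0.675). No marker was at 0 in all 6 libraries. The part of these marker differences in the results of single genes was not tested.

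**Figure D4:**
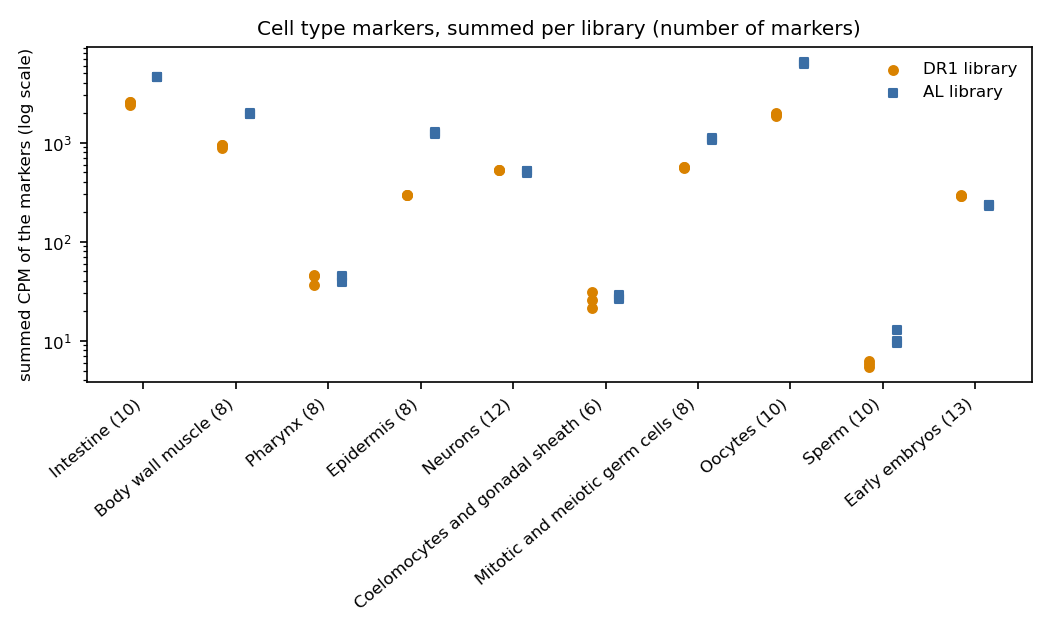
Summed CPM on a log axis of the markers of 10 cell types, with the number of markers in brackets, a point for each DR1 library (orange, left) and each AL library (blue squares, right). Oocyte, germ cell, muscle, intestine and epidermis sums are lower in DR1 in all 3 libraries. Without *col-19* the epidermis sums are higher in DR1, mostly through *wrt-10*. The neuronal sums are 524 to 529 CPM in DR1 and 489 to 516 CPM in AL, and without *sbt-1* they overlap.

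Cuticle and muscle genes fell in part. Of 84 numbered collagen genes tested out of 159, 41 were downregulated and 5 upregulated, and the share of all counts taken by the family was 0.334 ± 0.00587% in DR1 and 3.12 ± 0.0196% in AL. In 4 of the 5 upregulated the AL mean was under 1 CPM, and in 10 of the 41 downregulated the DR1 mean was. Such members passed the filter through 1 condition only. *col-80* had 10.3, 13.9 and 15.1 CPM in DR1, against 836, 847 and 830 CPM in AL, and *col-160* had 18.7, 17.3 and 17.3 CPM, against 935, 940 and 945 CPM. The collagens named for body shape behaved differently. Of 10 tested, 1 was upregulated and 1 downregulated (10.0% each, beside 10.5% and 8.80% of all genes). The gene *dpy-17* had 167, 159 and 155 CPM in DR1, against 175, 162 and 165 CPM in AL (−0.06, adjusted p = 0.31). A pair of hedgehog-related genes fell strongly, *grd-3* to 3.20, 3.03 and 3.13 CPM in DR1, against 85.5, 81.8 and 79.4 CPM in AL, and *grd-4* with a log2 fold change of −4.17. *nhr-23*, the receptor that drives molting genes, fell as well, with 5.64, 6.62 and 7.99 CPM in DR1, against 17.95, 18.3 and 20.99 CPM in AL. Of 45 sarcomere genes, 16 were downregulated and 1 upregulated (median −0.73). The perlecan gene *unc-52* had the largest fall (−2.22, s.e. 0.09). The troponin T gene *tnt-2* had 75.7, 70.5 and 69.0 CPM in DR1, against 261, 262 and 278 CPM in AL, and the tropomyosin gene *lev-11* had 212, 211 and 217 CPM, against 585, 584 and 610 CPM. The myosin light chain gene *mlc-1* fell to 96.9, 94.4 and 85.9 CPM in DR1, against 312, 303.3 and 308 CPM in AL. The myosin heavy chain genes stayed within 2-fold, *unc-54* lower (−0.73) and *myo-3* higher (0.57) at the adjusted p alone.

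Most tested genes of 2 lists of antibacterial defence were downregulated, 1 of the p38 pathway pooled with its effectors and 1 of CUB-like proteins. Listed names that matched no gene, 4 in the first and 8 in the second list, are left out. Of 22 genes of the p38 MAP kinase immune pathway and its effectors, 13 were downregulated and 1 was upregulated (median −2.10). T24B8.5, now *sysm-1*, a gut effector gene, had 4.42, 7.47 and 2.74 CPM in DR1, against 279, 363 and 288 CPM in AL, and ZK6.11, now *irg-8*, had 20.98, 19.3 and 23.4 CPM, against 383, 376 and 375 CPM. At the adjusted p alone, 7 of the 22 were higher and 13 lower. The upregulated gene was *irg-1*, an infection response gene outside the p38 pathway, with 64.3, 63.7 and 64.5 CPM in DR1, against 20, 19.5 and 21.6 CPM in AL. Of 16 CUB-like domain genes, secreted proteins induced by pathogens, 13 were downregulated and none upregulated (median −2.50). In 3 of these 13, and in 1 of the 13 of the p38 list, the DR1 mean was under 1 CPM. Such members passed the filter on low counts through AL only. C17H12.6 had 1.22, 1.61 and 1.57 CPM in DR1, against 99.9, 95.7 and 94.0 CPM in AL. The DR1 libraries of T24B8.5, ZK6.11 and C17H12.6 lay far under the AL libraries, without overlap.

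Lysozymes moved in both directions. Of 11 tested out of 16, 5 were upregulated and 5 downregulated, although their share of all counts was 0.119 ± 0.00112% in DR1 and 0.516 ± 0.00444% in AL. In 3 of the 5 upregulated the AL mean was under 1 CPM, and members that passed the filter through DR1 alone had to differ. Of the 8 at 1 CPM or more in AL, 2 were upregulated and 5 downregulated. *lys-2* had 73.9, 78.7 and 73.2 CPM in DR1, against 2361, 2406 and 2378 CPM in AL (−4.98, s.e. 0.04). *lys-1*, its neighbour, fell as well, with 372, 351 and 361 CPM in DR1, against 1740, 1732 and 1716 CPM in AL. *lys-3*, which lies next to *lys-2* on chromosome V, rose, with 29.7, 30.1 and 33.1 CPM in DR1, against 5.68, 7.28 and 6.68 CPM in AL. So 3 lysozyme genes lying between 10277904 and 10283544 moved in opposite directions. The invertebrate-type gene *ilys-3* had 682 counts over the DR1 libraries and 3 over the AL libraries, a ratio of 187 (95% counting interval 63.7 to 908.8), while *ilys-5* fell to 32.8, 24.9 and 23.9 CPM in DR1, against 355, 356 and 349 CPM in AL. C-type lectins also moved both ways, with 22 upregulated and 31 downregulated of 97 tested, and total-count scaling gave 26 and 25. In 13 of the 22 the AL mean was under 1 CPM, and in 6 of the 31 the DR1 mean was. Such members passed the filter through 1 condition only. Of the 80 at 1 CPM or more in AL, 9 were upregulated and 31 downregulated. *clec-41* had 146, 135 and 149 CPM in DR1, against 1384, 1382 and 1380 CPM in AL, and *clec-85* had 148, 144 and 158 CPM, against 1333, 1269 and 1351 CPM. *clec-5* had 60.7, 54.4 and 58.2 CPM in DR1, against 9.09, 7.87 and 9.69 CPM in AL. Among saposin-like genes, K04A8.21, now *spp-27*, had 126, 153 and 103 CPM in DR1, against 0.909, 1.76 and 1.60 CPM in AL, and *spp-4* had 1.32, 1.70 and 0.862 CPM, against 43.9, 56.4 and 50.3 CPM.

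Several *pals* genes of low expression rose. The family has no known biochemical function, and several members are induced by microsporidia and virus as part of the intracellular pathogen response. Of 39 members in the annotation, 24 passed the filter on low counts, and of those 15 were upregulated and none downregulated, or 12 and none with quantile normalization. In 9 of these 15 the mean of the AL libraries was under 1 CPM. Such members passed the filter only through their DR1 levels and so had to differ, and neither the counts nor the median of the 24 (1.67) is support for a rise of the family. Of the 15 members at 1 CPM or more in AL, 6 were upregulated. The remaining 15 of the annotation had too few counts to be tested. *pals-39* had 9.31, 9.55 and 7.68 CPM in DR1, against 1.14, 1.53 and 1.04 CPM in AL (2.84, s.e. 0.26, adjusted p = 7.93e-08). *pals-33* had 6.12, 4.92 and 6.03 CPM in DR1, against 0.341, 0.352 and 0.565 CPM in AL, and *pals-32* had 5.08, 6.52 and 5.48 CPM, against 0.454, 0.235 and 0 CPM. The next 3 members and *cul-6* were chosen after their values were seen. *pals-22* and *pals-25*, which act against each other in controlling the response, had log2 fold changes of 0.57 and 0.38, and *pals-24* was lower at the adjusted p alone (−0.83). A pair of further genes known from that response, also chosen after their values were seen, rose too. *skr-5*, a Skp1-related ubiquitin ligase gene, had 18.5, 18.2 and 15.9 CPM in DR1, against 2.95, 3.64 and 3.11 CPM in AL, and *eol-1* had 38.9, 35.8 and 40.6 CPM, against 9.203, 10.2 and 10.2 CPM. *cul-6*, the cullin that works with *skr-5*, was higher at the adjusted p alone (0.78).

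Detoxification genes moved in both directions. Of 52 cytochrome P450 genes, 12 were upregulated and 12 downregulated, and of 60 UDP-glucuronosyltransferases, 10 and 13. Both balances turned with the scaling, total-count scaling giving 17 and 9 for the first family and 15 and 10 for the second. *cyp-34A9* had 67.0, 68.5 and 68.4 CPM in DR1, against 9.09, 5.64 and 6.68 CPM in AL, whereas *cyp-35C1* had 5.08, 6.996 and 5.80 CPM, against 46.8, 46.1 and 39.8 CPM. Among glucuronosyltransferases, *ugt-22* had the largest fall among well-expressed members (−3.40, s.e. 0.08) and *ugt-18* the largest rise (2.42, s.e. 0.18). Glutathione S-transferases leaned down, with 4 upregulated and 10 downregulated of 37 (median −0.24, and 0.10 with total-count scaling). *gst-38* had 8.28, 7.85 and 8.69 CPM in DR1, against 231, 246 and 245 CPM in AL (−4.86, s.e. 0.07). Of the flavin-containing monooxygenases, *fmo-2* had 165, 144 and 164 CPM in DR1, against 1.14, 1.41 and 3.58 CPM in AL, *fmo-1* rose (1.86), and *fmo-3*, *fmo-4* and *fmo-5* were not called (0.00, 0.28 and 0.45). The short-chain dehydrogenase gene *dhs-3*, whose product coats lipid droplets, fell to 50.05, 45.2 and 47.0 CPM in DR1, against 165, 149 and 156 CPM in AL.

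Heat shock genes moved in both directions. Of 16 small heat shock protein genes, 3 were upregulated and 5 downregulated, a balance that total-count scaling (6 and 1) and quantile normalization (4 and 3) turned round. *hsp-12.3* had 67.0, 70.0 and 59.6 CPM in DR1, against 4.66, 3.64 and 1.79 CPM in AL, while *hsp-17* had 17.9, 21.1 and 17.7 CPM, against 163, 160 and 153 CPM. *sip-1*, an embryonic member, fell by 1.30 on the log2 scale. Of 11 larger chaperones, *hsp-70* was upregulated (1.41) and *hsp-60* downregulated (−1.02, a call that both of these scalings ended). Of 18 sensors and chaperones of the endoplasmic reticulum none was called. The glutathione peroxidase gene *gpx-5* fell to 7.62, 11.3 and 8.38 CPM in DR1, against 97.6, 96.1 and 96.1 CPM in AL, and the peroxiredoxin gene *prdx-2* by 1.14 on the log2 scale.

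Few transcripts of the nutrient pathways passed the fold threshold. Of 27 genes of insulin, TOR and AMPK signalling, *ist-1*, an insulin receptor substrate homologue, and *aakg-4*, an AMPK gamma subunit gene, were upregulated and none was downregulated. The upregulated share was 7.41%, beside 10.5% of all genes. *aakg-4* had 19, 16.9 and 19.7 CPM in DR1, against 6.70, 6.58 and 6.31 CPM in AL (1.51, s.e. 0.14). *daf-2*, the insulin receptor gene, had 57.7, 57.9 and 57.9 CPM in DR1, against 42.1, 46.1 and 44.8 CPM in AL, a difference beyond the spread of the libraries that stayed under 2-fold (0.38, adjusted p = 1.56e-04). *akt-2*, *sgk-1* and *aak-2* were higher at the adjusted p alone (0.86, 0.66 and 0.50), and *age-1*, *daf-18* and *ragc-1* lower (−0.63, −0.61 and −0.59). Among 19 insulin-like peptide genes tested out of 40, *ins-2* and *ins-37* rose (10.5%) and *ins-19* fell (5.26%), beside 10.5% and 8.80% of all genes. Total-count scaling called 5 upregulated. *ins-37* had 37.5, 37.4 and 39.1 CPM in DR1, against 16.5, 11.6 and 16.5 CPM in AL, and *ins-19* had 6.68, 12.5 and 6.97 CPM, against 37.2, 48.8 and 34.7 CPM.

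Among 41 transcriptional regulators of fasting, fat and stress, only *pqm-1* was upregulated and only *nhr-23* downregulated. Each is 2.44% of the list, beside 10.5% and 8.80% of all genes. *pqm-1* had 89.4, 78.8 and 83.5 CPM in DR1, against 40.3, 36.2 and 37.8 CPM in AL (1.14, s.e. 0.07). *hlh-30*, the TFEB homologue, had 128, 118 and 120 CPM in DR1, against 73.8, 80.1 and 77.9 CPM in AL (0.66), and *sbp-1*, the SREBP homologue, had a log2 fold change of 0.75 and *crtc-1* of 0.79, all at the adjusted p alone. *nhr-49*, which controls *acs-2* in fasted worms, had a log2 fold change of 0.35, and that of *skn-1* was −0.41. *daf-16* had 64.3, 56.8 and 69.1 CPM in DR1, against 76.3, 64.0 and 70.7 CPM in AL (−0.15, adjusted p = 0.13), and these libraries overlapped. Of the larger family of nuclear hormone receptors, 193 of 287 were tested (median 0.40). Of these, 30 were upregulated (15.5%) and 3 downregulated (1.55%), beside 10.5% and 8.80% of all genes. Total-count scaling gave 62 and 3, and quantile normalization 16 and 6. In 4 of the 30 the AL mean was under 1 CPM, and in 2 of the 3 downregulated with TMM the DR1 mean was. Such members passed the filter through 1 condition only. *nhr-18* had 22.8, 23.9 and 23.3 CPM in DR1, against 6.48, 4.58 and 8.09 CPM in AL.

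Neuropeptide and chemoreceptor genes were mostly of low expression. Of 95 neuropeptide genes, 6 were upregulated and 6 downregulated (6.32% each, beside 10.5% and 8.80% of all genes), and total-count scaling gave 20 and 4. *nlp-51* had 27.8, 26.4 and 24.7 CPM in DR1, against 2.04, 1.53 and 3.01 CPM in AL (3.54, s.e. 0.19). *nlp-39* also rose, but its DR1 libraries ranged over 32.3, 66.8 and 20.8 CPM, against 2.27, 3.76 and 2.63 CPM in AL. *nlp-40*, which the intestine releases to time defecation, fell to 194, 198 and 194 CPM in DR1, against 578, 575 and 587 CPM in AL. Only 121 of 1631 chemoreceptor genes had enough counts to be tested, and of these 41 were upregulated and 7 downregulated. Quantile normalization gave 19 and 10. In AL, 50 of the 121 had a mean under 1 CPM, among them 24 of the 41, and members that passed the filter through DR1 alone had to differ. *srh-2* had 10.5, 9.45 and 9.79 CPM in DR1, against 1.36, 2.70 and 1.04 CPM in AL. *sri-40* fell, with 14.1, 10.6 and 12.1 CPM in DR1, against 39.7, 45.8 and 48.2 CPM in AL. Of 147 F-box A genes, 32 were upregulated and 10 downregulated, against 60 and 7 with total-count scaling and 21 and 13 with quantile normalization. In 13 of the 32 the AL mean was under 1 CPM. Of the 130 at 1 CPM or more in AL, 19 were upregulated and 10 downregulated. Upregulated F-box A genes included *fbxa-24* with 12.5, 11.3 and 12.5 CPM in DR1, against 0.909, 1.06 and 0.847 CPM in AL. These families were mostly of low expression, and rises outnumbered falls among all genes of the lower classes.

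Genes on the X chromosome were shifted upward relative to the autosomes. The median log2 fold change was 0.35 over 2046 X-linked genes and lay between −0.10 and 0.04 on the 5 autosomes. On X, 14.2% of the genes were upregulated and 9.09% downregulated, against 6.57% and 6.13% on chromosome I, and chromosome V had the largest shares of called genes (14.7% and 11.3%). The X chromosome carries few genes expressed in the germ line, and germ cell markers were lower in DR1, as given above. Their part in this shift was not tested. By annotation class, 86 of 422 pseudogenes tested were upregulated (20.4%) and 19 downregulated (4.5%), beside 10.5% and 8.80% of all genes. Of 42 lincRNA genes, 9 were upregulated (21.4%) and 1 downregulated (2.38%). Among all genes of the lowest level class 24.4% were upregulated, and the part of expression level in these shares was not tested. *linc-108*, chosen after its values were seen, had 83 counts over the DR1 libraries and none over the AL libraries, at least 22.8-fold higher against a floor of 3 counts over the group. It lies from 15565170 to 15566425 on chromosome V, just before *acs-2* (15567394 to 15569897, WBcel235) on the opposite strand.

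**Figure D5:**
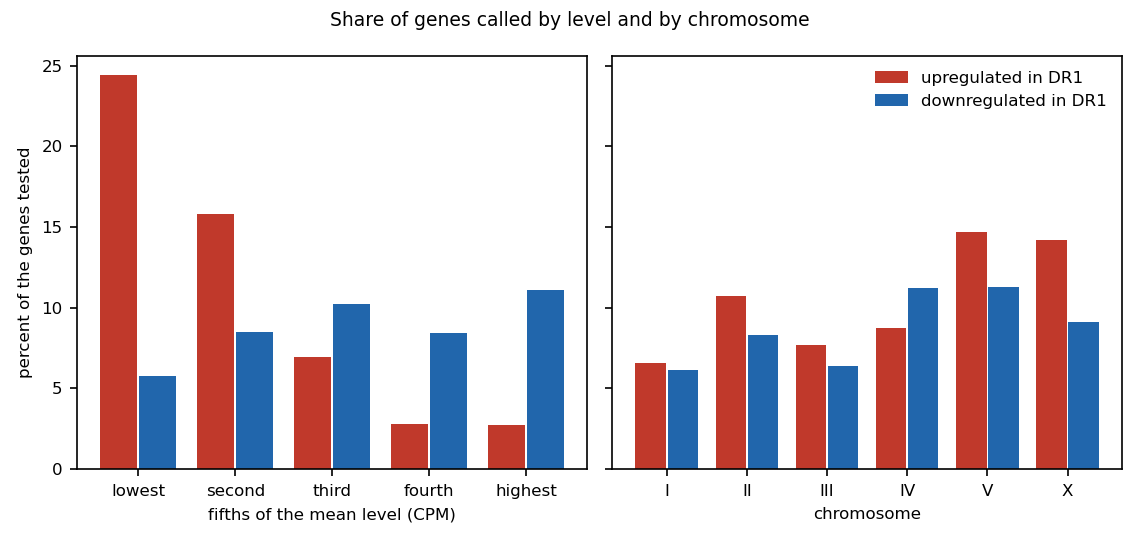
Percent of the genes tested that were upregulated (red) and downregulated (blue) in DR1, by 5 classes of the mean level (left) and by chromosome (right). The upregulated share falls from 24.4% in the lowest to 2.75% in the highest class, and chromosomes V and X hold the largest upregulated shares (14.7% and 14.2%).

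Some neighbouring genes were called in one direction. Along the chromosomes, 8 runs of 5 or more adjacent tested protein-coding genes rose or fell as a block, with no chance expectation computed. The longest was a run of 10 downregulated genes on chromosome V, from 2322038 to 2460893, which holds the 6 *pud* genes, named for higher protein levels in *daf-2* mutants, and *clec-209*. In it *pud-3* had 30.2, 32.3 and 30.1 CPM in DR1, against 744, 731 and 730 CPM in AL (−4.57, s.e. 0.05). On chromosome IV, 8 downregulated genes from 12903785 to 12964645 included the CUB-like genes K08D8.4, *irg-6* and *dod-24*. *dod-24* had 47.5, 54.8 and 54.05 CPM in DR1, against 252, 240 and 248 CPM in AL. A second run on chromosome IV, of 7 genes from 6818703 to 6883442, reached from C17H12.8 and C17H12.6 to *tre-2*. On chromosome II, *gst-26*, *gst-27*, *gst-28*, *gst-29* and *ptr-20* fell together between 15158180 and 15169861. *gst-27* led with 5.08, 5.58 and 5.40 CPM in DR1, against 53.1, 53.2 and 58.6 CPM in AL. Upregulated runs were shorter and of low expression, such as a histone cluster of 5 genes on chromosome II from 13819626 to 13828697, whose near-identical members can exchange reads.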

How the data were processed

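Whole-worm RNA was sequenced in 9 libraries, of which the 3 DR1 and 3 AL libraries were used. The deposited table holds raw counts per gene, which the authors made from aligned reads. Their processing notes name STAR 2.73a and edgeR 3.24.3. It lists 46926 gene identifiers, all matched to Ensembl release 115 (WBcel235), and 3 columns of other samples were not used. Totals of 9461313 to 12012750 counts limit the precision of low genes, and intervals cover counting error only.

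Counts were normalized by TMM, filtered by filterByExpr and tested with edgeR 4.0.16 (R 4.3.3), DR1 against AL, with Benjamini–Hochberg adjustment over 13826 genes. The script was tested on simulated data, where 96% of genes changed 4-fold and 38% of those changed 2-fold were called. A 2-fold change lies at the call threshold itself, so many such genes must miss it, and 72% of them passed the adjusted p. Alternatives were limma-voom (limma 3.58.1), DESeq2 1.42.0, other scalings and filters, a test against a fold change of 2, a replicate block and leaving out each library.

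Genes and lists were chosen with earlier results of these data known. Named are the 20 largest rises and falls among called genes with at least 10 CPM and no overlap between groups, qRT-PCR genes of the study, all members of lists with up to 12 tested genes, up to 4 rises and 4 falls of at least 5 CPM in longer lists, the regulators and nutrient signalling genes, the 15 genes with most counts, cell type markers, and members of runs of 5 or more neighbouring genes. Of these, the ones that show each group best are described. Gene roles are background knowledge. Promoter motifs were not analysed here.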

Additional observations from a re-analysis of the deposited data

How the results depend on the processing

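Total-count scaling gave 2701 upregulated and 751 downregulated genes, and at the adjusted p alone 6831 higher and 2476 lower ones. A test against a fold change of 2 gave 493 and 747, and a minimum mean of 5 CPM gave 777 upregulated genes, 633 of them among the 1457. Of the upregulated genes, 981 kept the call without each library in turn, and of the downregulated genes 1049. Leaving out 1 library gave 1384 to 1531 upregulated and 1217 to 1271 downregulated genes. The replicate block gave 1449 and 1222. Same-numbered libraries did not deviate together (r of −0.007, 0.068 and 0.013), so numbers were not taken as pairs. Of 163 called genes named above, 148 kept the call under every alternative that gave them a value, 10 lost it with quantile normalization and 14 with total-count scaling, and none reversed. Both scalings ended the calls of *rla-1*, *mdh-2*, *hxk-1*, *elo-5*, *aagr-1*, *ifb-2*, *sip-1*, *hsp-60* and *prdx-2*, total-count scaling also those of *rpn-6.2*, *hphd-1*, *zhp-3*, *prom-1* and *ptr-20*, and quantile normalization that of *unc-31*.

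Some genes that were not called changed sign or came to 0. With quantile normalization the log2 fold change was 0.0595 for *daf-16*, 0.1282 for *dpy-17*, 0.2536 for *vit-5*, and 0.0 for *eef-1A.1* and *vit-2*, which stood among the most abundant transcripts. With total-count scaling it was 0.1896 for *daf-16*, 0.2768 for *dpy-17* and 0.3163 for *vit-5*, and with a minimum of 5 CPM 0.0369 for *dpy-17* and 0.0762 for *vit-5*. Without a filter *fat-2* had −0.0011 and *fmo-3* −0.0127, and limma-voom gave −0.0026 for *fmo-3*. Leaving out 1 library gave −0.0513 to 0.1065 for *elt-2*, −0.011 to 0.0341 for *fat-2*, −0.1673 to 0.1042 for *fmo-3* and −0.0704 to 0.0242 for *vit-5*. The cause was not tested.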

Other observations

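Short transcripts deviated between libraries of 1 condition. Over 473 genes with exon lengths under 500 bases and at least 5 CPM, the median log2 deviation from the mean of the condition was −0.01, 0.176 and −0.167 in DR1 replicates 1, 2 and 3, and −0.056, 0.087 and −0.024 in the AL libraries. In longer classes it stayed between −0.034 and 0.035.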
